A study of Mus musculus with 4 samples.

Results

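Tdpoz1, Tdpoz2, Tdpoz3, Tdpoz4, Tcstv1, Tcstv3, Zfp352, Tmem92, Ubtfl1 and Sp110 are 10 marker genes of the mouse 2-cell embryo, and they were followed by symbol as 10 of the 49997 genes of a gene-level count table. They comprise 4 genes of the Tdpoz cluster, 2 genes of the Tcstv cluster and 4 genes treated as single-copy markers, a set meant to have little sequence in common with other genes. RNA-seq was performed on E14 mouse embryonic stem cells (ESCs), which are pluripotent and were grown on gelatin with leukemia inhibitory factor. According to the paper, its stable knockdown lines were made in ESCs that carry a tdTomato reporter under the promoter of the MERVL retroelement. The sample titles do not name this reporter. Cells of both groups had received a short hairpin RNA by lentivirus and were kept as stable lines under puromycin. The hairpin was a scrambled sequence in the control group (shScramble, 2 libraries) and was directed at Ythdf2 in the knockdown group (shYthdf2, 2 libraries). The labels do not say which of the hairpins against Ythdf2 was used, and the cells were described as lines, not as sorted 2-cell-like cells.

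ESC cultures hold a rare and transient population of 2-cell-like cells, in which transcripts of the early 2-cell embryo, including those that start in MERVL long terminal repeats, are switched on by factors such as DUX. Tdpoz proteins carry a TRAF-like and a POZ domain and resemble SPOP, an adaptor that brings substrates to a CUL3 ubiquitin ligase. Tcstv genes encode small proteins made at the 2-cell stage. Zfp352 encodes a zinc finger protein, Tmem92 a transmembrane protein, Ubtfl1 an HMG-box protein related to the ribosomal RNA transcription factor UBTF, and Sp110 a nuclear body protein of the SP100 family that interferon can induce. YTHDF2 is a cytoplasmic reader of N6-methyladenosine (m6A) that promotes decay of the mRNAs it binds, and the comparison asks how these markers stand when it is depleted.

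Ythdf2 itself had 3365 and 2760 reads in the controls against 1086 and 1082 in the knockdown, which edgeR fitted as a log2 change of -1.55 with an SE of 0.11 (adjusted p = 0.000693). The libraries held 31113006 to 36422510 counted reads, so that 3 reads, the limit that a count of 0 allows, equal 0.083 to 0.095 CPM, the read count scaled by TMM to 1000000 reads. These limits cover counting error only and take reads as independent. Each mate was counted, so 1 fragment can add more than 1 read, and the limits in reads may be too low. The 8 ESC markers examined had mean levels of 274 to 1088 CPM. Markers of fibroblast feeder cells summed to 9.80 to 18.0 CPM over 6 genes (Col1a1, Col1a2, Col3a1, Thy1, Postn and Acta2), of which 4 stayed below 1 CPM in every library. Of the 3 tested, 0 were called by edgeR or by DESeq2, and 1 was lower at an unadjusted p under 0.05 in edgeR. With poly(A) RNA of a whole culture, more 2-cell-like cells and more RNA per such cell cannot be told apart.

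The markers were scarce in both groups. Most had more reads per library total in the knockdown, but their differences did not pass the adjusted threshold. Of the 10 genes, 9 had at least 1 read and 7 passed the filter on low counts, so only these 7 were tested. A total of 6 of the 7 had a positive log2 fold change, with a median of 1.05, against 50.2% positive and a median of 0.00 over all genes tested. At an edgeR adjusted p under 0.05, 0 of the 7 passed in either direction, against 3.91% of the 18341 genes tested (2.43% higher and 1.49% lower). At an unadjusted p under 0.05 in edgeR, 3 were higher (Tmem92, Tdpoz3 and Tcstv3) and 0 lower, against 11.0% of all genes called higher this way. DESeq2 called 1 of the 6 genes to which it gave an adjusted p, namely Tdpoz3, against 5.55% of genes called higher by it. By the study's own criteria (DESeq2, unadjusted p of at most 0.05 and at least a 2-fold change), 2 genes were higher, Tdpoz3 and Tmem92, against 1.63% of genes with a read. In 4 of the 7 tested genes (Tdpoz3, Tcstv3, Zfp352 and Tmem92) both shYthdf2 libraries lay above both shScramble libraries, against 26.2% of all genes tested. Tcstv3 and Ubtfl1, with 9 and 8 reads in shScramble replicate 1, reached the filter's minimum in only 1 control library. Their passing thus leaned on their shYthdf2 reads. A gene that passed the filter only through its shYthdf2 reads had to differ between the groups, so these shares describe the genes and do not test them.

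**Figure D1:**
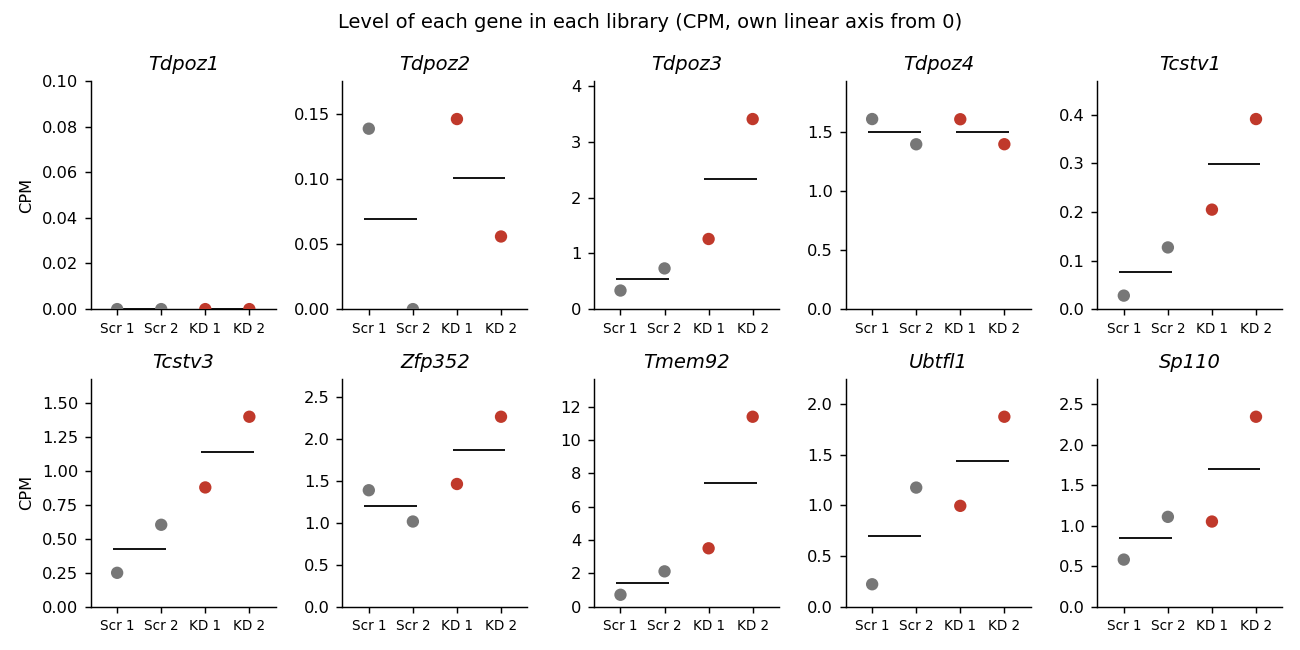
CPM of each of the 10 genes in shScramble replicates 1 and 2 (Scr, grey) and shYthdf2 replicates 1 and 2 (KD, red), with each panel on its own linear axis from 0 and the line marking the mean of 2 libraries. Tmem92, Tdpoz3, Tcstv3, Tcstv1 and Zfp352 do not overlap between the groups, Tdpoz4 stays between 1.40 and 1.61 CPM, and 7 of the 10 genes are highest in shYthdf2 replicate 2. The share of all genes highest in that library was not counted.

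Within the Tdpoz cluster the genes did not share one profile, since Tdpoz3 had more reads in both knockdown libraries and Tdpoz4 was level. Tdpoz3 (chromosome 3, 93826020 to 93827117, plus strand, mm10 build) had 12 and 23 reads in shScramble versus 43 and 122 in shYthdf2. Scaled, this was 0.53 ± 0.28 CPM against 2.33 ± 1.52 CPM (SD, n = 2 per group). The groups did not overlap, and the second library stood above the first within each group. The log2 fold change was 2.14 (SE 0.58), with an edgeR adjusted p of 0.0747 and a DESeq2 adjusted p of 0.0241. Without shYthdf2 replicate 2 it was 1.25 (edgeR adjusted p = 0.277), and without shScramble replicate 2 it was 2.80 (edgeR adjusted p = 0.000756). In every fit that leaves out a library, 1 group is a single library, assumed to vary like the other group, so passing such a fit is no sign of stability.

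Tdpoz4 lies 28510 bases away on the same strand (chromosome 3, 93796398 to 93797510). It had 58 and 44 reads in shScramble versus 55 and 50 in shYthdf2. After scaling, both groups stood at 1.50 CPM, with an SD of 0.15 in each (n = 2), and the ranges of the groups overlapped fully. Its log2 fold change was -0.00 (SE 0.38, edgeR adjusted p = 0.999) and stayed within -0.11 to 0.11 in 13 other settings, changing sign among them. The neighbouring genes therefore had different profiles within the same libraries. Tdpoz3 had 0.207 and 0.523 reads for each Tdpoz4 read in shScramble, and 0.782 and 2.44 in shYthdf2. The ratio was higher in both knockdown libraries. An exact two-sided permutation test gave a p of 0.333, the smallest that 2 libraries against 2 can give, so it cannot decide. Because Tdpoz4 was level, the ratio mostly restates the change of Tdpoz3, and it was not among the planned results.

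Tdpoz1 (chromosome 3, 93669333 to 93676283, minus strand) had 0 reads in all 4 libraries, and Tdpoz2 (chromosome 3, 93651542 to 93652686, minus strand) had 5 and 0 reads in shScramble and 5 and 2 in shYthdf2. Both are annotated on chromosome 3 and once more on an alternate contig of the build. A read matching both copies equally is placed at several positions, and such reads were left out of the counts, so a count of 0 for Tdpoz1 does not bound its RNA. Whether the aligner's index held that contig was not tested. Gm5541, which is also listed on both, had 34 and 12 reads in shScramble and 24 and 48 in shYthdf2. How alike its copies are was not measured.

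Other genes of the Tdpoz region were taken by family and by sequence in common. Gm4982 was the only gene whose annotated transcript held any 150-base stretch of Tdpoz3, and 33.4% of such stretches of Tdpoz3 were found in it. It had 0 and 2 reads in shScramble versus 14 and 28 in shYthdf2 (fitted log2 fold change 4.16, SE 1.07, edgeR adjusted p = 0.0634), its control counts lying under the limit of 3 reads. Spopfm1, a SPOP-like gene, had 30 and 16 reads in shScramble and 64 and 74 in shYthdf2 (log2 fold change 1.54, SE 0.43, edgeR adjusted p = 0.0811). In both genes, as in Tdpoz3, both shYthdf2 libraries lay above both shScramble libraries, against 26.2% of all genes tested. Gm4982 passed the filter only through its shYthdf2 reads, so it had to differ between the groups. Spopfm1 was named after its values were seen.
Tdpoz8 (Gm4858 in GENCODE), the gene with most 150-base stretches in common with Tdpoz4, had 39 and 13 reads in shScramble and 28 and 33 in shYthdf2 (log2 fold change 0.21, SE 0.57, edgeR adjusted p = 0.883). Gm5773, which shares stretches with Tdpoz2, had 40 and 7 reads in shScramble and 10 and 20 in shYthdf2 (log2 fold change -0.65, SE 0.77, edgeR adjusted p = 0.683). Spopfm3 had 25 and 7 reads in shScramble and 11 and 30 in shYthdf2 (log2 fold change 0.33, SE 0.73, edgeR adjusted p = 0.852). In Tdpoz8, Gm5541, Gm5773 and Spopfm3 the groups overlapped, and shScramble replicate 1 held more reads than replicate 2, the reverse of Tdpoz3. Spopfm1, without overlap, and Tdpoz4 had that same order in the controls, so the order did not go with overlap. Tdpoz9 (0, 0, 0 and 7 reads) and Gm9117 (0, 0, 6 and 2 reads, in the order shScramble 1, 2, shYthdf2 1, 2) were read only in the knockdown, in numbers too small for the filter, and Tdpoz5 and Tdpoz7 had 0 reads. Spop itself, at a mean of 17.2 and 20.7 RPKM (CPM per kilobase of exon) in the groups, had a log2 fold change of 0.26 in edgeR (SE 0.11, adjusted p = 0.219).

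**Figure D2:**
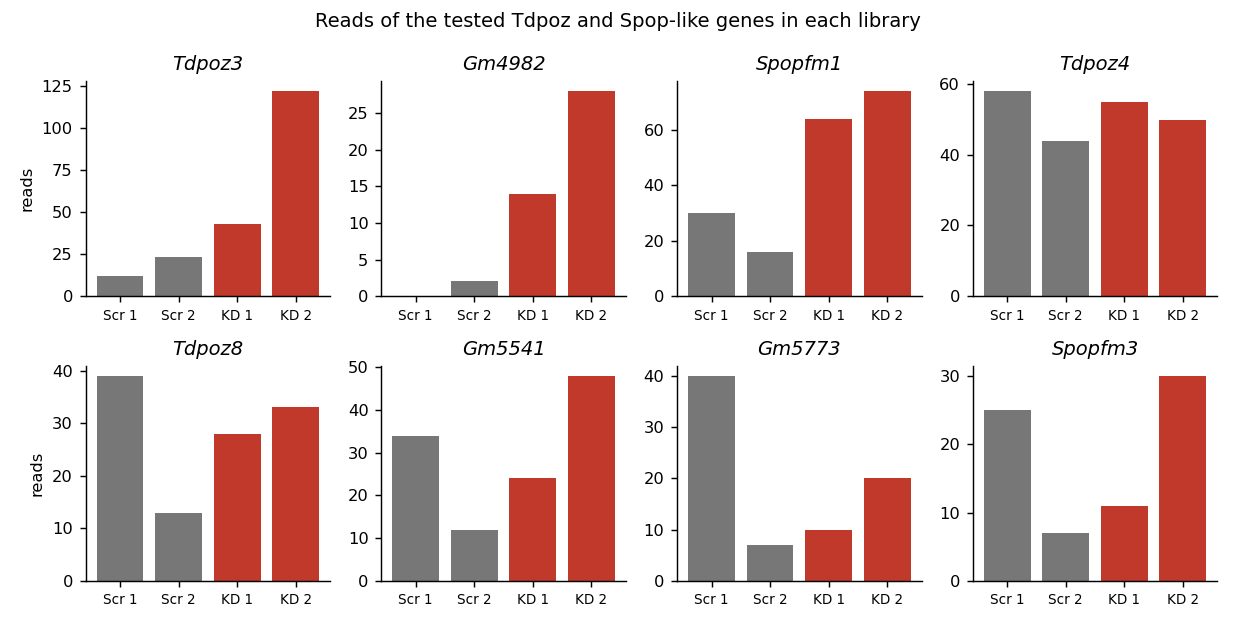
Reads (bars, from 0) in shScramble replicates 1 and 2 (Scr, grey) and shYthdf2 replicates 1 and 2 (KD, red) for Tdpoz3, Tdpoz4 and 6 other tested genes of the Tdpoz region of chromosome 3. Tdpoz3, Gm4982 and Spopfm1 have both knockdown bars above both control bars, while in Tdpoz4, Tdpoz8, Gm5541, Gm5773 and Spopfm3 the groups overlap.

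Both Tcstv genes were low, and both had a higher level in each knockdown library than in either control library, as had 26.2% of all genes tested. Tcstv3 (chromosome 13, 120316862 to 120318261, plus strand) had 9 and 19 reads in shScramble versus 30 and 50 in shYthdf2, or 0.43 ± 0.25 and 1.14 ± 0.37 CPM (SD, n = 2). Its log2 fold change, 1.42 with an SE of 0.59, had an edgeR unadjusted p of 0.0372 and an adjusted p of 0.207, and it passed the adjusted threshold in 0 of 11 other settings (0.91 to 2.17). Tcstv1 (chromosome 13, 119893387 to 119894785, minus strand) had 1 and 4 reads in shScramble versus 7 and 14 in shYthdf2. It did not pass the filter, and fitted without one it had an edgeR adjusted p of 0.495. Both genes kept the same order of libraries, from shScramble 1 at the bottom to shYthdf2 2 at the top.
The summed Tcstv level was 0.278 and 0.73 CPM in shScramble and 1.08 and 1.79 CPM in shYthdf2, a log2 ratio of means of 1.51 that became 2.37 without shScramble replicate 2. It was 1.96 between the libraries numbered 1 and 1.29 between those numbered 2. The annotated transcripts of Tcstv1 and Tcstv3 were 90.2% identical over 743 aligned bases, and 0 stretches of 150 bases were common to either and another gene, while at 50 bases 15.0% and 31.4% were.
Among genes of the same region that share shorter stretches with them, Gm20767 (158 and 200 reads in shScramble, 246 and 638 in shYthdf2) stood 1.22 higher on the log2 scale (SE 0.38, edgeR adjusted p = 0.106 and DESeq2 adjusted p = 0.0134), and AF067061 (12 and 25, then 42 and 90) had 1.74 (SE 0.56, edgeR adjusted p = 0.114). Gm21818, which has the most 50-base stretches in common with Tcstv3, had 74 and 74 reads, then 76 and 189 (0.77, SE 0.41, edgeR adjusted p = 0.325).

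Tmem92 was the single-copy marker with the most reads and the largest fold change of the 7 tested genes. The gene (chromosome 11, 94777217 to 94782703, minus strand) had 26 and 67 reads in shScramble versus 120 and 408 in shYthdf2, or 1.42 ± 0.99 and 7.46 ± 5.58 CPM (SD, n = 2). The groups did not overlap, but the SD of the knockdown libraries was nearly as large as the difference of the means. The log2 fold change was 2.40 (SE 0.59), with an edgeR adjusted p of 0.0545 and a DESeq2 adjusted p of 0.130. Between libraries of one number the log2 ratio was 2.28 for number 1 and 2.42 for number 2, whereas the second library of a group exceeded the first by 1.56 in shScramble and 1.70 in shYthdf2. No 150-base or 100-base stretch of Tmem92 was found in another annotated gene.

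Several genes close to Tmem92 also had more reads in the knockdown. Of the 10 genes listed within 100 kb of it, 7 were tested and 3 were called higher, against 2.43% of all genes tested. Gm11546, 14536 bases away, had 12 and 21 reads in shScramble versus 48 and 151 in shYthdf2 (log2 fold change 2.50, SE 0.59, edgeR adjusted p = 0.0484). Gm11543, 44976 bases away, had 23 and 52 reads, then 136 and 468 (2.91, SE 0.58, edgeR adjusted p = 0.029). Gm11544, 62128 bases away, had 2 and 0 reads, then 20 and 32 (fitted 4.50, SE 0.99, edgeR adjusted p = 0.0393), its control counts lying under the limit of 3 reads, so it passed the filter only through its shYthdf2 reads. In each of the 3, and in AA623943 between them (17 and 39, then 77 and 217 reads, 2.29, SE 0.56, edgeR adjusted p = 0.0534 and DESeq2 adjusted p = 0.00237), the groups did not overlap. Both shYthdf2 libraries lay above both shScramble libraries in 26.2% of all genes tested. The 3 were named because they were called, and AA623943 after its values were seen, so this describes them and is no test.
These 4 genes lie on the same side of Tmem92 and on the same strand. On the other side Gm11545 (0.86, SE 0.46), Cdc34b (1.22, SE 0.66) and the broadly expressed Xylt2 (-0.11, SE 0.12) did not pass (edgeR adjusted p = 0.334, 0.337 and 0.663). In CPM, Cdc34b (12 and 7 reads, then 15 and 31) also had both knockdown libraries above both control libraries. Gm11545 overlapped between the groups, and Xylt2 had both knockdown libraries below both control libraries. The calls depended on the setting. Gm11546 passed in 7 of 13 other settings and had 1.49 (edgeR adjusted p = 0.155) without shYthdf2 replicate 2. Gm11543 passed in 12 of 13, failing in limma-voom (adjusted p = 0.0702), and Gm11544 in 10 of 11, failing without shScramble replicate 2 (3.65, edgeR adjusted p = 0.0721). Gm11543 and Gm11544 share 50-base stretches with Tmem92, and 1.93% of its stretches of that length occurred in another gene.

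Near the other markers, 1 further gene within 100 kb was called by edgeR. Gm21761, 17250 bases from Tcstv1, had 508 and 506 reads in shScramble versus 920 and 2220 in shYthdf2 (log2 fold change 1.56, SE 0.31, edgeR adjusted p = 0.0292, DESeq2 adjusted p = 0.0614), and was 0.84 without shYthdf2 replicate 2. The tested genes around Tdpoz3 and Tdpoz4, Gm9113 (0.65) and Gm5773 (-0.65), had edgeR adjusted p-values of 0.531 and 0.683.

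**Figure D3:**
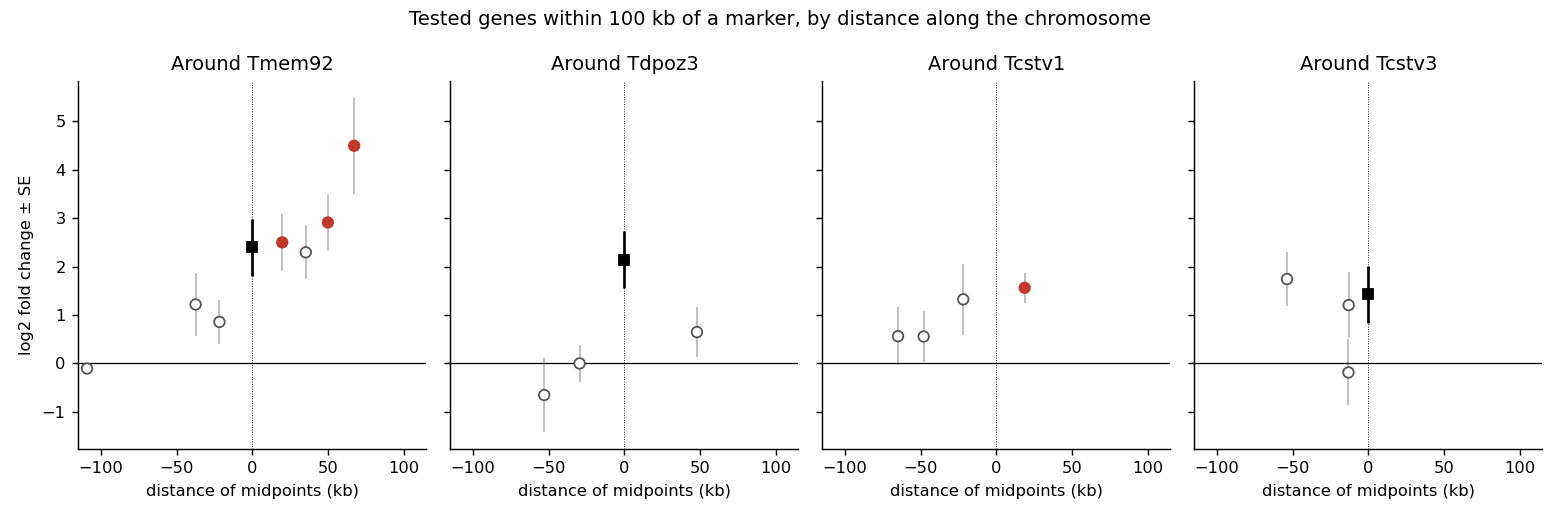
Log2 fold change with its SE for tested genes within 100 kb of Tmem92, Tdpoz3, Tcstv1 and Tcstv3, against the distance of gene midpoints in kb, with the marker itself as a black square (Tcstv1 was not tested and has none) and genes with an edgeR adjusted p under 0.05 filled red. Around Tmem92, 3 of 7 tested genes are filled, on 1 side of it, and around Tdpoz3 its neighbour Tdpoz4 sits at 0.

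Zfp352 (chromosome 4, 90218820 to 90225687, plus strand) had 50 and 32 reads in shScramble versus 50 and 81 in shYthdf2, or 1.20 ± 0.26 and 1.86 ± 0.57 CPM (SD, n = 2). The groups did not overlap in CPM, but shScramble replicate 1 (1.39) and shYthdf2 replicate 1 (1.46) were nearly level. The log2 fold change was 0.63 (SE 0.41, edgeR adjusted p = 0.429), the smallest of the 6 positive ones, and it fell to 0.28 without shYthdf2 replicate 2. Its pseudogene Zfp353-ps, 95.2% identical to it over 1650 aligned bases, had 0 and 1 reads in shScramble and 4 and 30 in shYthdf2, yet 0 stretches of 150 bases were common to both.

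Ubtfl1 (chromosome 9, 18404418 to 18411502, plus strand) had 8 and 37 reads in shScramble versus 34 and 67 in shYthdf2. Its level was 0.70 ± 0.67 and 1.43 ± 0.62 CPM (SD, n = 2), and shScramble replicate 2 (1.17) lay above shYthdf2 replicate 1 (0.99). Its log2 fold change, 1.05 with an SE of 0.68 (edgeR adjusted p = 0.422), depended on a control library. It was 2.67 (edgeR adjusted p = 0.0191) without shScramble replicate 2 and 0.29 (edgeR adjusted p = 0.872) without shScramble replicate 1, in fits whose spread comes from the knockdown libraries alone. UBTF's own gene, Ubtf, had a mean of 39.1 RPKM in shScramble and 43.3 RPKM in shYthdf2 (log2 fold change 0.15, SE 0.12, edgeR adjusted p = 0.523).

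Sp110 (chromosome 1, 85570735 to 85610850, minus strand) had 21 and 35 reads in shScramble versus 36 and 84 in shYthdf2, or 0.85 ± 0.37 and 1.70 ± 0.92 CPM (SD, n = 2). In CPM the groups overlapped, shScramble replicate 2 (1.11) being above shYthdf2 replicate 1 (1.05). The log2 fold change was 1.01 (SE 0.52, edgeR adjusted p = 0.313), and it was 0.32 without shYthdf2 replicate 2. Of its 150-base stretches, 11.1% occurred in another annotated gene, chiefly Gm16026, against 0 for the other 3 single-copy markers. At 50 bases it was 42.3%, against 7.09% for Zfp352, 3.36% for Ubtfl1 and 1.93% for Tmem92. Its exons also overlap those of Sp140 on the opposite strand by 162 bases, and the counting took no account of strand. Sp140 had 33 and 42 reads in shScramble and 31 and 42 in shYthdf2 (log2 fold change -0.11, SE 0.45, edgeR adjusted p = 0.927), and Sp100 had 6 and 4, then 6 and 12 reads. Of 12 interferon genes 6 were tested, with a median log2 fold change of 0.16, and 7 of the 12 stayed below 1 CPM in every library. In edgeR 0 were called, 1 was higher and 1 lower at an unadjusted p under 0.05, and DESeq2 called 0.

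The start regions of the markers were then compared. RefSeq promoter windows of the GRCm38.p6 build (250 bases before to 50 after a start) were given for 5 of the 10 genes: Sp110 (2 starts), Tdpoz1, Tdpoz4, Zfp352 and Ubtfl1. Neither the core of the published DUX site (found in 0.244% of 27025 genes) nor the published ZSCAN4 site (TGCACAC, in 5.02%), searched on both strands, was in these windows. The longest word held on the gene's own strand by 3 or more of the markers was then searched for, after the values were known. It has 14 bases, ACACACCTTTAATC, and lies before 1 start of Sp110 and before Zfp352 and Tdpoz1, genes on 3 chromosomes whose proteins are unrelated. Below, the copy nearest each start is shown 5′ to 3′ with the word in capitals.
Sp110, minus strand, chr1:85603937-85603966: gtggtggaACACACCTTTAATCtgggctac
Zfp352, plus strand, chr4:90218742-90218771: cctggacaACACACCTTTAATCctggacac
Tdpoz1, minus strand, chr3:93676389-93676418: aggaaaacACACACCTTTAATCcagctttg

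The word begins 67 bases before the start in Sp110, 70 in Zfp352 and 127 in Tdpoz1. Sp110 and Zfp352 hold 3 copies each and Tdpoz1 holds 1. Over all RefSeq promoters, both strands searched, it occurred in 40 of 27025 genes (0.148%). The same 3 genes also carried ATATAAG, which resembles a TATA box and was found in 2.95% of genes. This word was not among the planned motifs and came from no search rule, so its presence in all 3 is no test. ATATAAG is in capitals in the stretch that leads up to each start.
Sp110, minus strand, chr1:85603898-85603927: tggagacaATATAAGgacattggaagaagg
Zfp352, plus strand, chr4:90218783-90218812: ggaggcggATATAAGgccatgggagcaggc
Tdpoz1, minus strand, chr3:93676321-93676350: ctaagcctATATAAGcacatggaagaagga

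It begins 28 bases before the start in Sp110, 29 in Zfp352 and 59 in Tdpoz1. Compared position by position without gaps, 18 to 20 of these 30 bases are identical between any pair of the genes. They include the 7 bases of the word itself, on which the stretches were aligned. Identity with gaps allowed was not measured, and it may be higher. The windows of Tdpoz4 and Ubtfl1 held neither word, and no window was given for Tdpoz2, Tdpoz3, Tmem92, Tcstv1 or Tcstv3. Of the 40 genes, 5 had 0 reads, Tdpoz1 among them, and 15 were tested. EdgeR called 1 of these (Gm4340, higher), against 2.43% of all genes tested. A positive log2 fold change was seen in 11 of the 15, against 6616 of 13085 tested genes with a promoter in the table. The median was 0.63 against 0.00 over those genes. Without Sp110 and Zfp352, 9 of 13 were positive, with a median of 0.40. Tdpoz8 (0.21, edgeR adjusted p = 0.883) was also among them. The word was chosen from the markers' own windows, so these values describe the genes and are no test of it.

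**Figure D4:**
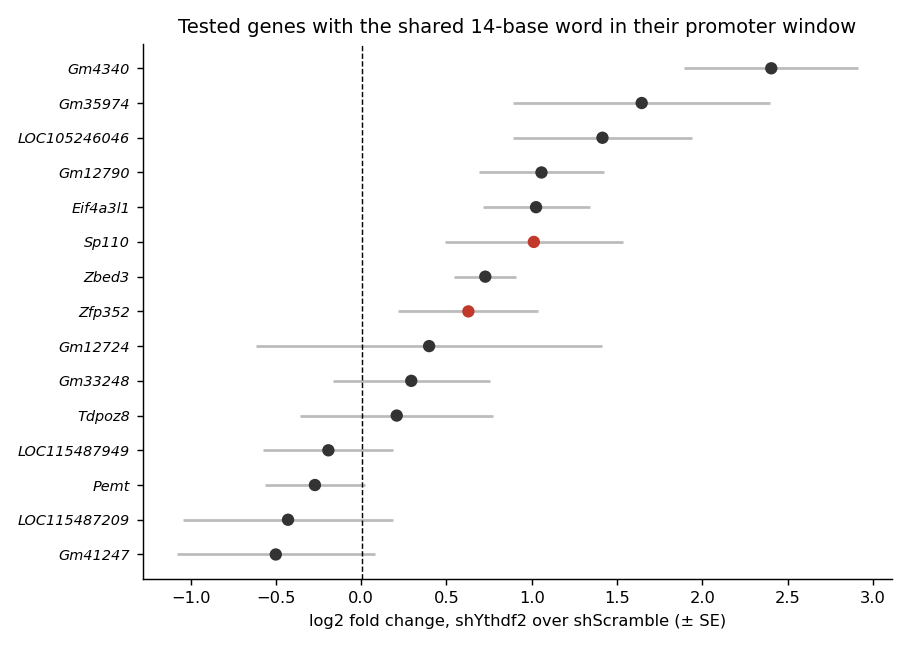
Log2 fold change with its SE for the 15 tested genes whose RefSeq promoter window holds the shared 14-base word, sorted by value, with Sp110 and Zfp352 in red and a dashed line at the median of all tested genes with a promoter (0.00). A total of 11 of the 15 lie above 0, and the values run from -0.50 (Gm41247) to 2.40 (Gm4340).

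Levels per length placed the genes in a different order in each group. In shScramble, Tdpoz4 was highest at a mean of 1.35 RPKM, above every other marker in both libraries (1.45 and 1.26, against at most 0.972 for Tmem92). Tmem92 (0.651), Zfp352 (0.532), Tcstv3 (0.486) and Tdpoz3 (0.484) followed with overlapping libraries, and then Ubtfl1 (0.253), Sp110 (0.210) and Tcstv1 (0.088). In shYthdf2, Tmem92 (3.41) and Tdpoz3 (2.13) had the highest mean RPKM, with libraries at 1.61 and 5.21 and at 1.15 and 3.11. Both Tmem92 libraries lay above those of Tdpoz4, while Tdpoz3 overlapped Tmem92, Tdpoz4 and Tcstv3. Tdpoz4 (1.35) and Tcstv3 (1.30) came next, then Zfp352 (0.824), Ubtfl1 (0.520), Sp110 (0.421) and Tcstv1 (0.340). The first place in mean RPKM thus went from Tdpoz4 to Tmem92.

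Summed by group, the markers moved with the replicates as well. The summed level of the 4 single-copy genes was 2.92 and 5.43 CPM in shScramble and 7.02 and 17.9 CPM in shYthdf2, a log2 ratio of means of 1.58, and of 0.75 once shYthdf2 replicate 2 was left out. The summed Tdpoz level was 2.08 and 2.13 CPM, then 3.01 and 4.86 CPM, a ratio of 0.90 that was 0.53 between the libraries numbered 1 and 1.19 between those numbered 2. Across the 10 genes, 7 were highest in shYthdf2 replicate 2 and 6 were lowest in shScramble replicate 1. The shares of all genes with these orders were not counted, so neither count can be called particular to the markers. Leaving out 1 library at a time, Tmem92 passed an edgeR adjusted p of 0.05 in all 4 fits, Tdpoz3 in 3, Ubtfl1 in 1 and Tcstv3, Zfp352, Sp110 and Tdpoz4 in 0, each fit having 1 group with a single library, whereas 0 of the 7 passed with all 4 libraries.

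**Figure D5:**
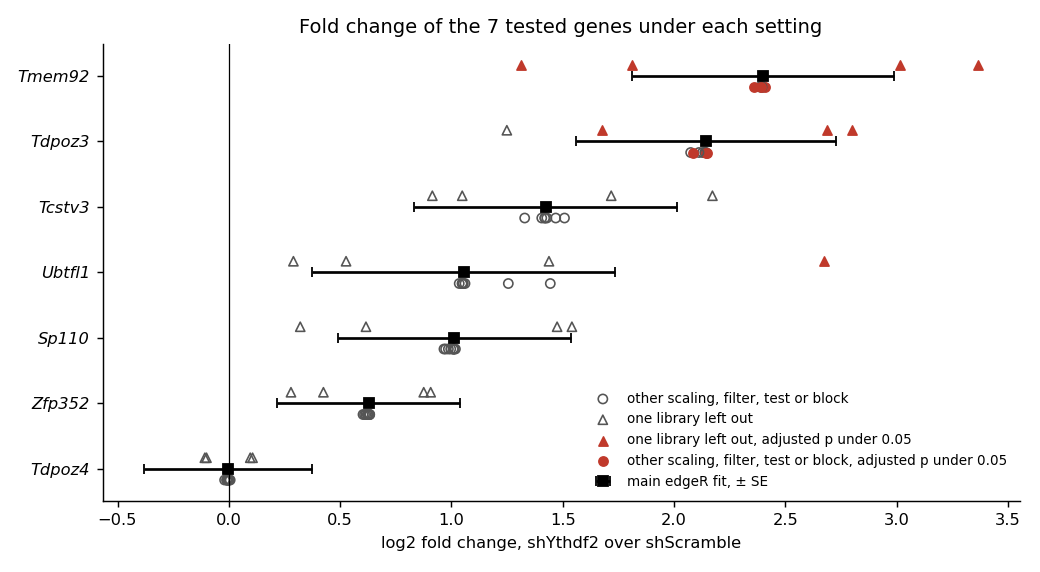
Log2 fold change of the 7 tested genes in the main edgeR fit (black squares, bars ± SE), with 1 library left out (triangles) and under other scalings, filters, tests, halved counts or a replicate block (circles), filled red where the adjusted p is under 0.05. Omitting a library moves Tmem92 between 1.31 and 3.36 and Ubtfl1 between 0.29 and 2.67, while Tdpoz4 stays near 0.

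Other 2-cell genes were set beside the markers. In a list of 14 multicopy 2-cell genes (Zscan4, Usp17l, Duxf3 and others) 14 were tested. All 14 had a positive log2 fold change, against 50.2% of all genes tested, with a median of 1.50. Duxf3 (8 and 0 reads in shScramble, 12 and 52 in shYthdf2) passed the filter only through its shYthdf2 reads, so it had to differ. EdgeR called 5 of them higher, against 2.43% of all genes tested. The called genes were Gm4340 (2.40), Zscan4a (2.28), Gm21761 (1.56), Usp17le (1.44) and Usp17la (1.29). DESeq2 called 4 higher, namely Usp17la, Usp17le, Usp17lb and Zscan4f, and gave Gm4340, Zscan4a and Gm21761 adjusted p-values of 0.0981, 0.0856 and 0.0614. In a list of 17 other 2-cell gene models, 14 were tested and 13 were positive, with a median of 1.16. Pramel17 and Arg2, with 8 and 6 reads in shScramble replicate 2, reached the filter's minimum in only 1 control library. Against the same shares, 1 was called higher, Pramel19 (2.35, edgeR adjusted p = 0.0416). Pramel19 passed in 8 of 13 other settings and had a DESeq2 adjusted p of 0.0846, while DESeq2 called Gm20767 and Gm2022 (adjusted p = 0.0134 and 0.00739). Gm4340, with 192 and 393 reads in shScramble and 741 and 2580 in shYthdf2, had the fold change of Tmem92 with more reads behind it, and an edgeR adjusted p of 0.0356. Both lists were written with results of these data known, and no difference between them and the markers was tested.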

How the data were processed

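RNA-seq libraries of 2 shScramble and 2 shYthdf2 E14 ESC lines were analysed, grouped by their titles. The study's methods call them independent biological replicates. Gene-level raw read counts of the 4 libraries, as deposited by the authors in a single table, were used. Per the file headers the counts came from featureCounts 2.0.3 over exons of the RefSeq annotation of mm10, without strand, with each mate counted and with reads placed at several positions or over several genes left out. The submitters' processing notes name fastp 0.19.4, HISAT2 2.2.1 and DESeq2 1.40.2. The table held 0 further columns of sample values.

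Here edgeR 4.0.16 (R 4.3.3) was applied to the counts with TMM scaling, filterByExpr (minimum count 10, minimum total 15) and a two-sided quasi-likelihood F test, adjusted by Benjamini-Hochberg over 18341 genes. DESeq2 1.42.0 and limma-voom (limma 3.58.1) were alternatives. The fit was tested on simulated data. CPM used TMM-scaled totals and RPKM divided CPM by the deposited exon length in kilobases. With 2 libraries a group, the p-values of the model rest on a spread shared across genes. The biological coefficient of variation was 15.8%.

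Stretches shared between genes were counted by exact match of every 150-base window (100 or 50 as alternatives) of the GENCODE transcripts of GRCm38. Percent identity came from a global alignment of the longest transcripts with free end gaps, taken over aligned bases without gaps. The deposited lengths of Tdpoz1 and Tdpoz2 count both annotated copies, which lowers their RPKM. A genome sequence and protein sequences were not used here.

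The markers, the comparison lists and the rules were chosen with earlier results of these data known. Named genes were the 10 markers, Ythdf2, rows of the same families or with sequence in common, called genes of the lists (at most 5 each), called genes within 100 kb, and for each of 3 profiles the 3 nearest genes (those for the summed Tcstv level are not reported here). AA623943, the uncalled neighbours of Tmem92, Spopfm1, Spopfm3 and Gm41247 were named after their values were seen, as was the 14-base promoter word. The word ATATAAG was not planned and came from no search rule. The ratio of Tdpoz3 to Tdpoz4 reads was also not planned.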

Additional observations from a re-analysis of the deposited data

How the results depend on the processing

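At an edgeR adjusted p under 0.05, 0 of the 7 tested markers were called. The count was 1 with DESeq2 and with halved counts, 2 with no filter on low counts and by the study's criteria, 3 at an unadjusted p under 0.05 (chosen after seeing the data), and from 1 to 3 with 1 library left out. RLE, upper quartile and library total scaling, a minimum mean of 1 CPM and limma-voom gave 0. Tdpoz3 had 2.15 (adjusted p = 0.000122) with no filter, 2.14 with DESeq2, and 1.25 to 2.80 with 1 library left out. Tmem92 had 2.41 (adjusted p = 4.24e-11) with no filter and 2.39 with halved counts, and 1.31 to 3.36 with 1 library left out. Ubtfl1 ran from 0.29 to 2.67 and Tdpoz4 from -0.11 to 0.11 with 1 library left out. Tdpoz4 turned to 0.0017 with no filter and 0.0060 with halved counts. The summed log2 ratios ran from 0.52 to 1.21 (Tdpoz), 0.98 to 2.37 (Tcstv) and 0.75 to 2.10 (single-copy) with 1 library left out, and the Tdpoz ratio was 0.53 within replicate number 1. The cause was not tested.

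With 1 library left out, the ranges of 5 uncalled relatives crossed 0: Spopfm3 (-0.52 to 1.37), Tdpoz8 (-0.31 to 1.07), Gm5773 (-1.37 to 0.93), BC147527 (-0.24 to 1.91) and Sp140 (-0.35 to 0.18). Among all genes tested, 718 were called, against 1938 with no filter, 1423 with DESeq2, and 834 to 2288 with 1 library left out.

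With the replicate number as a block, 3525 genes were called and 2 markers, Tdpoz3 (2.08, adjusted p = 0.000161) and Tmem92 (2.36, adjusted p = 2.01e-10). No source common to same-numbered libraries is stated. Over the genes tested, the deviations from the group mean in the libraries numbered 1 correlated at 0.225 between the groups. With 2 libraries a group, those numbered 2 mirror this value and add nothing to it. Whether same-numbered libraries were paired was not tested.

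Most markers had fewer than 100 reads in a library, and 3 could not be tested. Reads placed at several positions were also left out of the counts, for all markers and not only for Tdpoz1 and Tdpoz2. Of the 150-base stretches, 33.4% in Tdpoz3 and 6.54% in Tdpoz4 occurred in other genes, and of the 50-base stretches 66.2% and 41.2%. How many reads each gene lost was not measured, which limits the comparison of Tdpoz3 with Tdpoz4.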

Other observations

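Factors known to restrain or promote the 2-cell-like state were examined beside these markers. Of 12 such genes (Dppa2, Dppa4, Nelfa, Zmym2, Trim28, Setdb1, Smchd1, Chaf1a, Chaf1b, Kdm1a, Ythdc1 and Mettl3), all 12 were tested by edgeR, 7 had a positive log2 fold change, and the median was 0.03. In edgeR 0 were called, with 1 higher and 1 lower at an unadjusted p under 0.05, and DESeq2 called 1 higher. Of 8 ESC markers 2 were positive and 1 was called lower, Tdgf1, a co-receptor of Nodal signalling (23710 and 23562 reads in shScramble, 17440 and 18000 in shYthdf2, log2 fold change -0.47, SE 0.11, edgeR adjusted p = 0.0411), which was lost without shScramble replicate 2 (-0.38, edgeR adjusted p = 0.274). DESeq2 called 2 lower, Tdgf1 (adjusted p = 0.00113) and Nanog, a core pluripotency factor (log2 fold change -0.41, adjusted p = 0.00501, against 0.0594 in edgeR). Of the trophoblast markers 5 of 6 were tested and 1 was positive (median -0.82), and of the primitive endoderm markers 5 of 5 were tested and 3 were positive (median 0.05). In edgeR and DESeq2 0 genes of either list were called, and 3 trophoblast markers and 0 primitive endoderm markers were lower at an unadjusted p under 0.05 in edgeR.

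The genes whose log2 CPM over the 4 libraries ran nearest to a marker profile, measured as deviations from the shScramble mean, were Rnf180, Adamts4 and Ttn for the summed Tdpoz level (Euclidean distances 0.058, 0.081 and 0.093), and Gm30320, Gm36718 and Pramel16 for the mean of the single-copy markers (0.056, 0.115 and 0.181). Only Ttn of these 6 was called in edgeR (log2 fold change 0.90, SE 0.18). Pramel16 was in the list of other 2-cell gene models.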
